A study of Mus musculus with 8 samples.

Results

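Hspb1, Hspb8, Hspa1a, Hspa1b, Hspa8, Hsp90aa1, Hsp90ab1, Dnajb1, Hsph1 and Hsf1 make up a set of heat shock genes that was chosen by name from the 22026 gene names in the deposited tables, 10 in all. The set was built around Hspb1, a small heat shock protein that differed between vector labels in the mouse breast cancer line 4T1, and the question was whether Hspb1 moved alone or together with the heat shock response. The 4T1 values of Hspb1 therefore chose the set, so they are given as a description without a p, and whether they passed a threshold supports nothing, while its values in the line TS/A were not used for that choice. Of the 10 genes, 9 had enough reads to be tested, and Hspa1a did not.

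Bulk RNA was sequenced from 4T1 and TS/A, mammary carcinoma lines from BALB/c mice, in 8 libraries. Each line carried either an empty virus vector or a vector expressing Gpr56, now called Adgrg1, a receptor of the adhesion GPCR family known to bind type III collagen, with 2 libraries for each line and vector. All cells were kept in RPMI medium with 10% FCS, and the design text places the transduced cells on type III collagen for 72 h before RNA was taken. The titles and the characteristics disagree on how the groups differ: the characteristics name an empty or a Gpr56 vector, whereas the titles name the same libraries Emp_Control or Emp_ColIII, so whether vector or collagen separates them cannot be told apart from the labels. Whether a transduced population was a pool or 1 clone, and whether paired libraries were separate cultures, is not given in the sources used here, so the spread behind each p-value is that of these libraries and may be technical alone.

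Heat shock proteins are chaperones that keep other proteins folded and are made in larger amounts when proteins unfold. HSF1, the heat shock transcription factor, drives that response by binding heat shock elements, arrays of inverted GAA units in the promoters of its targets. HSP70 proteins hold unfolded chains with J-domain proteins as partners that load them and HSP110 proteins that exchange their nucleotide, HSP90 proteins mature kinases and receptors, and small heat shock proteins such as HSPB1 hold unfolding proteins without using ATP and are often abundant in carcinoma cells.

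Depth ran from 10510569 to 25959142 reads per library. The transduced gene, Adgrg1, checked the labels: it stood at 2.53 and 2.77 CPM (read counts scaled to library size, with TMM factors) in 4T1 with the empty vector, while both 4T1 libraries that received Gpr56 were far higher, at 90.5 and 100.1 CPM. In TS/A it stood at 34.8 and 16.3 CPM in the libraries labelled empty and at 22.6 and 13.3 CPM in those labelled Gpr56, so it set the groups apart only in 4T1, and the TS/A groups are called by label throughout. The TS/A empty libraries also differed most from each other (chi-square per degree of freedom 118, against 3.58 to 17.4 in the other 3 groups). On plain library totals, without TMM factors, mammary epithelial markers (8 genes) summed to 2132 to 3070 CPM in 4T1 and to 190.2 to 257 CPM in TS/A, where Krt8, Krt7, Epcam, Cdh1, Cldn7 and Esrp1 were each under 1 CPM. Of 20 immune markers 17 stayed under 1 CPM in all 8 libraries, as did all 10 endothelial markers. Of the 11 fibroblast markers, which summed to 9.30 to 16.5 CPM in 4T1, Col1a1 alone reached 131 to 328 CPM in TS/A.

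The promoters of Hspb1, Hspa1b and Hspb8 are shown because these 3 genes had the widest differences in the set, between vector labels or between lines. The sequences are the 250 bases that precede the annotated start in RefSeq (GRCm38.p6), read 5′ to 3′ on the gene's strand, with capitals marking the fixed letters of GAANNTTC, a head-to-head pair of GAA units. They lie at chr5:135887669-135887918 (plus strand, Hspb1), chr17:34959239-34959488 (minus strand, Hspa1b) and chr5:116422865-116423114 (minus strand, Hspb8).
Hspb1: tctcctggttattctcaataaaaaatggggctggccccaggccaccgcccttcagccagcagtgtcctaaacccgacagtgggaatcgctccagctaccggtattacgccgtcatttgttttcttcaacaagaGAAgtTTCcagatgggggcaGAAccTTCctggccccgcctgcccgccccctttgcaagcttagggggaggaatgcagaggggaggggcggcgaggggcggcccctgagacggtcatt
Hspa1b: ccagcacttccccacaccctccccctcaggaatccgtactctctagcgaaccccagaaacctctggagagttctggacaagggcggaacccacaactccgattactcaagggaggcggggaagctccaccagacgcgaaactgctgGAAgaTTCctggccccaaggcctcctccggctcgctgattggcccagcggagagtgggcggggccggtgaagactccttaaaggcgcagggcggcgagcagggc
Hspb8: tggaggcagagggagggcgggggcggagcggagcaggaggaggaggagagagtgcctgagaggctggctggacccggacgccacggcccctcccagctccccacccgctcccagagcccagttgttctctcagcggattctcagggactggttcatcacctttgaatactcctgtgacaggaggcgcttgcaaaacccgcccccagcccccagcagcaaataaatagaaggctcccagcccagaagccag

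Hspb1 held GAANNTTC at 2 positions, -117 to -110 and -97 to -90 from the start, and Hspa1b held it once, at -104 to -97. Hspb8 held neither GAANNTTC nor TTCNNGAA. Each motif reads the same on both strands, and 6.69% and 7.17% of 32851 RefSeq promoter windows of the same length held GAANNTTC and TTCNNGAA. The longer array of 3 alternating GAA and TTC units with 2 free bases between them, searched on both strands and holding a match to each of the shorter motifs, was in none of the windows found for the set and in 0.466% of all windows. The promoter table held 6 of the 10 genes, and Hspa8, Hsp90aa1, Hsp90ab1 and Hsf1 were not among them. Of the others, Hspa1a carried the same GAANNTTC match as Hspa1b, its window differing from that of Hspa1b at 3 of 250 positions, Hsph1 had 1 TTCNNGAA, and Dnajb1 had neither. These matches are letters in a window and were not tied to binding.

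Hspb1 was low in 4T1 with the empty vector and several times higher with the Gpr56 vector. Its level was 3.43 and 3.38 CPM in the empty libraries, from 61 and 72 reads, and 15.4 and 18.8 CPM in the Gpr56 libraries, from 330 and 201 reads. Both Gpr56 libraries lay far above both empty ones. The 95% Poisson intervals, which cover counting error only, reached at most 4.41 CPM in the empty libraries and began at 13.8 CPM in the Gpr56 libraries. They leave out the spread between libraries, and these values chose the set, so the gap between intervals is a description and no test. The group means were 3.41 ± 0.0345 and 17.1 ± 2.40 CPM (SD, n = 2), a 5.01-fold difference (log2 fold change 2.32, SE 0.20). In TS/A, Hspb1 lay between these levels, at 8.86 and 7.86 CPM in the empty libraries and at 8.80 and 7.43 CPM in those labelled Gpr56, and the groups overlapped. The TS/A difference was -0.04 on the log2 scale (SE 0.19, with an adjusted p of 1 over 11970 genes in the quasi-likelihood test of edgeR). The plot of levels by library shows all 10 genes side by side.

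**Figure D1:**
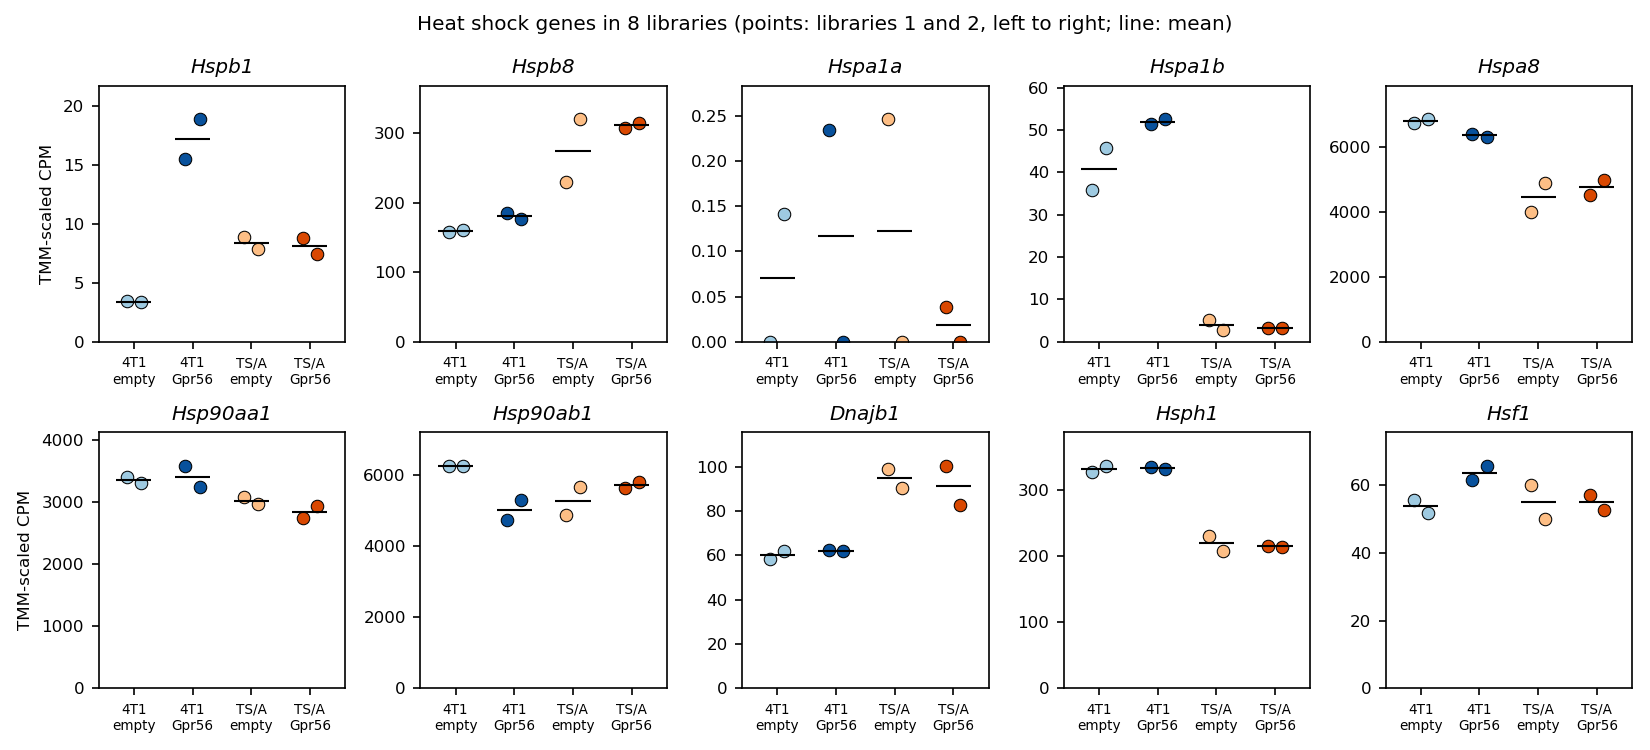
Level of each heat shock gene in TMM-scaled CPM (vertical axes, each from 0) in the 8 libraries by line and vector label. Points are libraries 1 and 2 from left to right and lines are group means of 2. Hspb1 is near 3.4 CPM in 4T1 with the empty vector and at 15.4 and 18.8 CPM with the Gpr56 vector, Hspa1b is higher in 4T1 than in TS/A, and Hspa1a is at or near 0 throughout.

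Hspb8, a small heat shock protein that works with BAG3 in clearing misfolded proteins, showed no such gap. It stood at 159 and 161 CPM in 4T1 with the empty vector and at 185 and 176 CPM with the Gpr56 vector, so both Gpr56 libraries were higher, by 0.18 on the log2 scale (SE 0.15). In TS/A it stood at 230.4 and 320.0 CPM in the empty libraries and at 307 and 315 CPM in those labelled Gpr56. The first TS/A empty library was the low one and the second was the highest of the 4, so the groups overlapped (0.18, SE 0.15, adjusted p = 1 by edgeR). Without the second TS/A empty library the TS/A difference was 0.44, and over all fits without 1 library it ran from -0.04 to 0.44.

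The HSP70 genes spanned the widest range of levels. Hspa1b, the stress-inducible HSP70, stood at 35.8 and 45.7 CPM in 4T1 with the empty vector and at 51.4 and 52.5 CPM with the Gpr56 vector, both of the latter being higher (0.35, SE 0.23). In TS/A it stood at 5.04 and 2.75 CPM in the empty libraries and at 3.24 and 3.32 CPM in those labelled Gpr56, from 51 to 123 reads, with overlap between the groups (-0.27, SE 0.28, adjusted p = 1 by edgeR). Without the second TS/A empty library, its lowest, the Hspa1b difference was -0.62, with 1 TS/A empty library left. Over all fits without 1 library this difference ran from -0.62 to 0.26, so its sign was not stable. Its near-identical neighbour Hspa1a was listed with 0, 3, 5 and 0 reads in 4T1 and with 6, 0, 1 and 0 reads in TS/A, in the order empty 1, empty 2, Gpr56 1, Gpr56 2. These genes share much of their sequence (58.8% of the 50-base windows of Hspa1a also occur in Hspa1b, and 62.3% the other way), so how the counting split their reads is uncertain, and Hspa1a exons also overlap those of Gm20481 on the opposite strand, which the library kit does not mark. Summing both genes left Hspa1b's calls in the fit of all 8 libraries as they were. The fits without 1 library and of 1 line alone were not repeated with the sum.

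Hspa8, the constitutive HSP70 that does most of the folding work in unstressed cells, was at 6744 and 6856 CPM in 4T1 with the empty vector and at 6420 and 6319 CPM with the Gpr56 vector. Both Gpr56 libraries were slightly lower (-0.09, SE 0.14). In TS/A it was at 4007 and 4889 CPM in the empty libraries and at 4526 and 4986.5 CPM in those labelled Gpr56, with overlap (0.10, SE 0.14, adjusted p = 1 by edgeR). Of its 50-base windows 74.8% recur in other annotated genes, 13 in number, none of which has counts listed. How reads from such windows were placed is not known. Snord14c, Snord14d and Snord14e, on the same strand, overlap Hspa8 exons when these are pooled over all its annotated transcripts. Whether they overlap the transcripts listed with reads was not tested.

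Neither HSP90 gene passed the test in 4T1 in the fit of 8 libraries. Hsp90ab1, the constitutive cytosolic HSP90, was at 6251 and 6243 CPM with the empty vector and at 4722 and 5279 CPM with the Gpr56 vector, so both Gpr56 libraries were lower (-0.32, SE 0.14). Hsp90aa1, the stress-inducible cytosolic HSP90, was at 3416 and 3310.0 CPM with the empty vector and at 3588 and 3242 CPM with the Gpr56 vector, with overlap (0.02, SE 0.13). Neither passed in TS/A. Hsp90ab1 was at 4868 and 5658 CPM in the empty libraries and at 5618 and 5792.5 CPM in those labelled Gpr56 (0.12, SE 0.14, adjusted p = 1 by edgeR). Hsp90aa1 was at 3079 and 2976 CPM against 2741 and 2948 CPM, both labelled Gpr56 lower (-0.09, SE 0.13, adjusted p = 1 by edgeR), and was the 1 tested gene of the set whose TS/A groups did not overlap, as was the case for 21.6% of all genes tested. For Hsp90aa1 58.5% of 50-base windows recur in other genes and for Hsp90ab1 4.49%, and none of those genes has counts listed.

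Dnajb1, the J-domain partner that activates HSP70 after heat shock, was at 58.1 and 61.7 CPM in 4T1 with the empty vector and at 62.4 and 61.8 CPM with the Gpr56 vector. Its 4T1 groups were separated by the narrowest gap in the set (0.05, SE 0.13). In TS/A it was at 98.8 and 90.5 CPM in the empty libraries and at 100.3 and 82.5 CPM in those labelled Gpr56, with overlap (-0.05, SE 0.13, adjusted p = 1 by edgeR). Hsph1, an HSP110 nucleotide exchange factor for HSP70, was at 328 and 336 CPM against 335 and 331 CPM in 4T1 (0.01, SE 0.11) and at 231 and 208 CPM against 216 and 214 CPM in TS/A (-0.03, SE 0.11, adjusted p = 1 by edgeR). The Hsph1 groups overlapped in both lines.

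Hsf1, the gene of the transcription factor itself, was at 55.5 and 51.8 CPM in 4T1 with the empty vector and at 61.6 and 65.6 CPM with the Gpr56 vector, both of the latter being higher (0.25, SE 0.13). In TS/A it was at 60.1 and 49.8 CPM in the empty libraries and at 56.9 and 52.7 CPM in those labelled Gpr56, with overlap (-0.00, SE 0.13, adjusted p = 1 by edgeR). HSF1 is controlled largely at the protein level, by trimer formation and phosphorylation, which RNA levels do not measure.

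Counted together, 1 of the 9 tested genes passed the threshold in 4T1, Hspb1, where 0.226% of 11970 genes did, and this count supports nothing because Hspb1 was chosen there. None of the other 8 passed in 4T1 by edgeR, and 0 passed by the Wald test of DESeq2, while 1 of the 8, Hsp90ab1, was under an unadjusted p of 0.05. The unadjusted and DESeq2 counts of this paragraph have no share of all genes beside them, so no weight is placed on them. In TS/A 0 of 9 passed by edgeR, where 0.00835% of all genes did, and likewise 0 by DESeq2 and 0 at the unadjusted level. Between lines, the difference between the vector contrasts was -2.37 for Hspb1 (SE 0.27, TS/A minus 4T1), for which no p is given since it holds the same 4T1 libraries, and 0.0668% of all genes were called in that comparison. The other 8 differences ran from -0.62 for Hspa1b (SE 0.36, adjusted p = 0.837 by edgeR) to 0.44 for Hsp90ab1 (SE 0.20, adjusted p = 0.777 by edgeR), and 0 passed by edgeR, 0 by DESeq2 and 0 at an unadjusted p of 0.05. Without the second TS/A empty library Hspa1b (-0.96) and Hsp90ab1 (0.56) passed there, where 19.5% of all genes did. The set without Hspb1 had a median log2 fold change of 0.04 in 4T1 and -0.02 in TS/A over its 8 tested genes, beside 0.00 and -0.01 over all genes. The plot of vector differences shows Hspb1 in 4T1 apart from all other values.

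**Figure D2:**
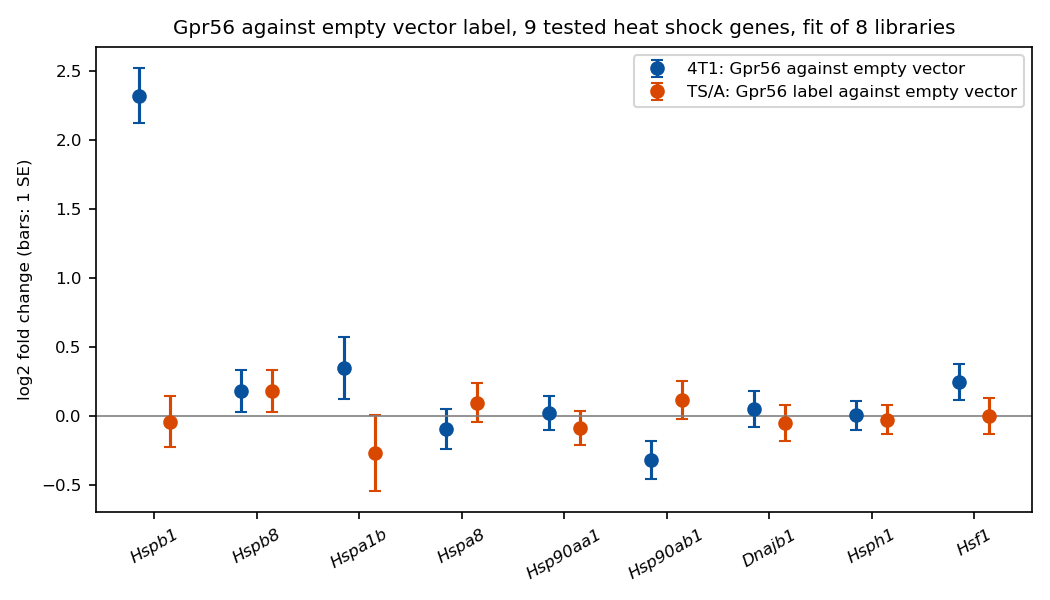
Log2 fold change of the Gpr56 against the empty vector label for the 9 tested heat shock genes in 4T1 (blue) and TS/A (orange), from 1 fit of 8 libraries, with bars of 1 SE. Hspb1 in 4T1 is at 2.32 and all other values lie between -0.32 and 0.35.

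Fitting the 4 libraries of 4T1 alone gave smaller errors and more calls. The other genes that passed there were Hspb8, Hspa1b and Hsf1, each higher with the Gpr56 vector (log2 fold changes 0.18, 0.34 and 0.24, with SE 0.06, 0.10 and 0.07), and Hsp90ab1, which was lower (-0.32, SE 0.05). This was 5 of 9 genes with Hspb1, where 22.8% of 11361 genes were called, 11.5% higher and 11.3% lower, and no weight is placed on the count because the contrast chose the set. In the same fit Hspa8, Hsp90aa1, Dnajb1 and Hsph1 did not pass. Leaving out each 4T1 library in turn from that fit left Hsp90ab1 called each time. Hspa1b lost its call without the first empty library, Hsf1 without the second empty or the second Gpr56 library, and Hspb8 without any but the second Gpr56 library. In these fits, without empty 1, empty 2, Gpr56 1 and Gpr56 2 in turn, 13.7%, 12.2%, 23.9% and 21.1% of all genes were called, and Hspa8 came to pass in the fit without Gpr56 1 (-0.11). Over all 9 tested genes, the 4T1 groups did not overlap for 7, with Hspb1, Hspb8, Hspa1b, Dnajb1 and Hsf1 higher and Hspa8 and Hsp90ab1 lower, where 59.9% of all genes did not overlap. In the fit of 8 libraries, the log2 fold change of Hspb1 was between 2.18 and 2.47 without any single 4T1 library and was then not past the threshold. In that fit leaving out either TS/A empty library added Hsp90ab1 to the 4T1 calls (-0.32), where 10.5% and 10.3% of all genes were called. Summed marker levels, on plain library totals, differed with the 4T1 labels as well. The epithelial sum was 2164 and 2132 CPM in the empty-vector libraries, against 3070 and 2985 CPM in the Gpr56 ones, the fibroblast sum, mostly Pdgfra, was 16.48 and 16.46 against 9.30 and 10.8 CPM, and the immune sum, mostly Cd68 and Cd14, was 15.6 and 14.6 against 27.0 and 29.97 CPM, with the T cell markers Cd3e, Cd4 and Cd8a at 0 in all libraries. Of the tested markers 0 of 8 epithelial, 0 of 3 immune and 0 of 5 fibroblast genes passed in 4T1 by edgeR in the fit of 8 libraries, where 0.226% of all genes did. Under an unadjusted p of 0.05 there were 5, 2 and 1 of these markers, and DESeq2 called 3, 1 and 0. For the unadjusted and DESeq2 marker counts no share of all genes is given, so they are a description. Their part in the heat shock gene values was not tested.

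TS/A and 4T1 with the empty vector were then compared to see which heat shock genes differ between the lines. Hspa1b had the widest difference: it was lower in TS/A, at a level 0.0971 times that in 4T1 (-3.36 on the log2 scale, SE 0.26, adjusted p = 3.04e-05 by edgeR). The gap was also seen in the libraries labelled Gpr56, at 51.4 and 52.5 CPM in 4T1 and at 3.24 and 3.32 CPM in TS/A. Hsph1 (-0.60, SE 0.11, adjusted p = 0.00245 by edgeR) and Hspa8 (-0.61, SE 0.15, adjusted p = 0.00918 by edgeR) were lower in TS/A as well. Hspb8 (0.79, SE 0.16, adjusted p = 0.00397 by edgeR) and Dnajb1 (0.66, SE 0.13, adjusted p = 0.00399 by edgeR) were higher in TS/A.

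Hsp90aa1 (-0.15, adjusted p = 0.347), Hsp90ab1 (-0.25, adjusted p = 0.172) and Hsf1 (0.04, adjusted p = 0.839) did not pass by edgeR's test. Hspb1 was higher in TS/A by 1.30 (SE 0.20), given without a p because the 4T1 empty libraries are those that singled it out. Leaving Hspb1 aside, 5 of 8 genes were called, 2 higher and 3 lower, where 47.4% of all genes were called (23.9% higher and 23.5% lower), and 7 of 8 had groups that did not overlap, where 72.6% of all genes did so. Among the HSP70 system, the inducible HSP70 and the HSP110 gene were thus lower in TS/A while the J-domain gene Dnajb1 was higher. The call of Hspa8 was lost without either 4T1 empty library (adjusted p = 0.0578 and 0.0653 by edgeR), where 27.2% and 27.3% of all genes were called. Hsp90ab1 was called without the second TS/A empty library (-0.37, adjusted p = 0.00572 by edgeR), where 56.8% of all genes were. Fibroblast markers, mainly Col1a1, and the epithelial markers differed between the lines in the same libraries, and their part was not tested.

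Levels between genes were compared per length, as the deposited RPKM (reads per kilobase of transcript, scaled to library size) summed over the transcripts of a gene. Hspa8 was highest with a mean of 2503 RPKM over 8 libraries (range 1895 to 3013), followed by Hsp90ab1 at 2114 (1804 to 2360) and Hsp90aa1 at 1018 (896 to 1154). Far below were Hspb8 at 121 and Hsph1 at 78.9, then Hsf1 at 26.0 and Dnajb1 at 24.4. Hspb1 at 9.76 (3.48 to 19.99) and Hspa1b at 8.42 (0.886 to 17.9) were near the bottom, and Hspa1a was last at 0.0268 RPKM.

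Some neighbours in that order exchanged places between groups. Hspa8 exceeded Hsp90ab1 in both 4T1 groups, and their ranges overlapped in both TS/A groups. Hsf1 exceeded Dnajb1 in 4T1. In TS/A their group ranges overlapped, but within each library Dnajb1 was the higher gene. It stood at 32.9 and 27.3 against 28.9 and 21.8 RPKM in the empty libraries, and at 32.2 and 25.9 against 26.4 and 24.0 RPKM in those labelled Gpr56. Taking the longest transcript's length instead placed Dnajb1 above Hsf1 in the mean over all libraries (25.7 against 21.1 on the same scale). The order of Hspb1 and Hspa1b was not the same in all groups. In 4T1 with the empty vector Hspa1b was higher, at a mean of 13.5 RPKM against 3.52 for Hspb1, with the Gpr56 vector their ranges overlapped (17.7 and 18.1), and in TS/A Hspb1 was higher, at 8.83 against 1.34 with the empty vector and 8.56 against 1.11 in the libraries labelled Gpr56.

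Transcript shares gave the forms to which the reads had been assigned, by a counting program that is not named. Nearly all Hspb1 reads, at least 98.4% in each library, were assigned to ENSMUST00000005077, so its 4T1 difference lay in reads assigned there. The listed Hspb1 forms are of similar length, 903 and 930 bases, and whether the assignment tells them apart was not tested. Hspa8 reads fell to ENSMUST00000117557 for 68.6% to 73.9%, and Hsp90aa1 reads to ENSMUST00000021698 for 72.5% to 79.3%. Hsph1 was divided over 3 main forms, at 32.2% to 44.2%, 16.8% to 40.4% and 21.7% to 38.4%, and Hsf1 had 58.3% to 78.0% on ENSMUST00000227478. For Hsph1 and Hsf1 the shares differed within groups as well, the leading Hsf1 form taking 78.0% and 61.6% in the 4T1 empty libraries.

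**Figure D3:**
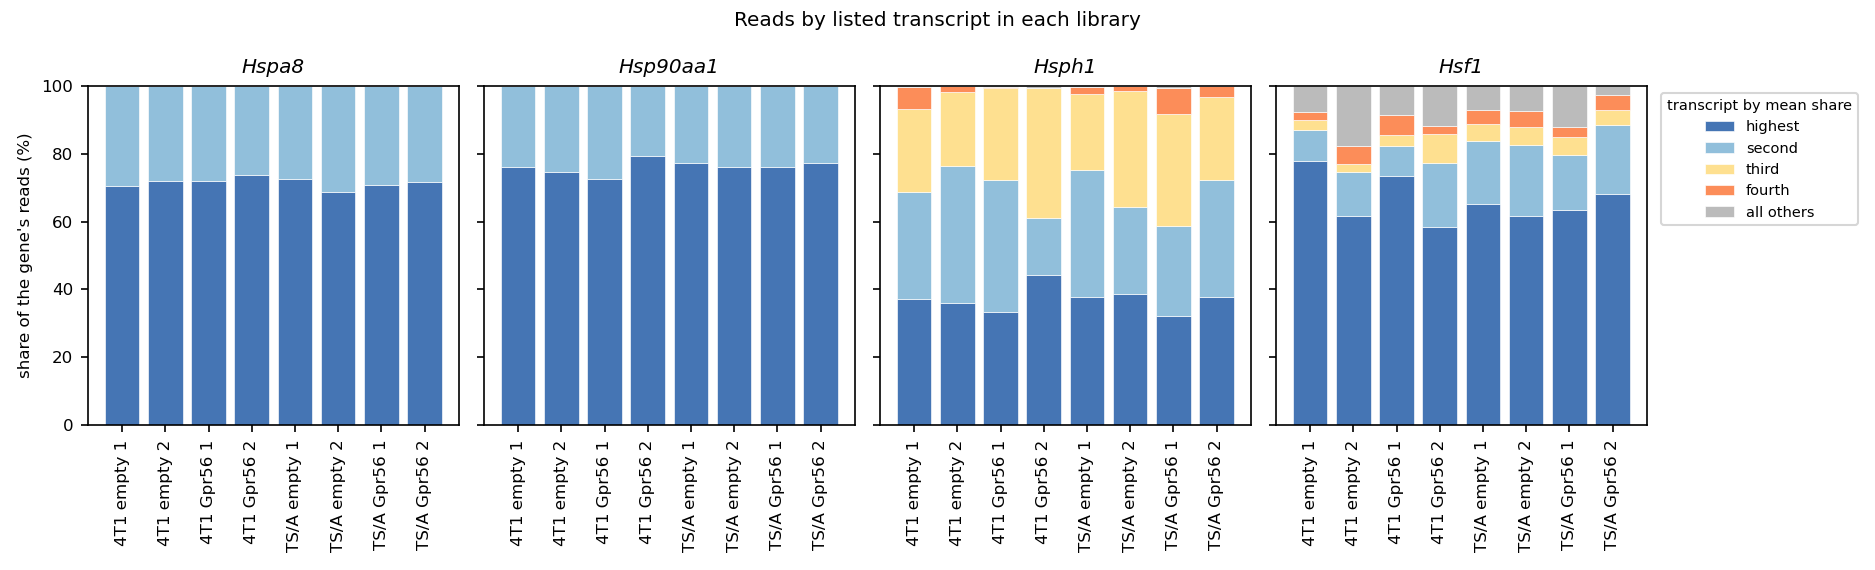
Share of each gene's reads (vertical axis, percent) by listed transcript in the 8 libraries for Hspa8, Hsp90aa1, Hsph1 and Hsf1, with colours giving transcripts in order of their mean share. Hspa8 keeps 68.6% to 73.9% on its leading transcript, and the leading Hsf1 transcript ranges from 58.3% to 78.0%.

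Positions of the genes are those of GENCODE release M21 (GRCm38). Hspb1 (ENSMUSG00000004951) is at chr5:135887919-135889563 on the plus strand, Hspb8 (ENSMUSG00000041548) at chr5:116408491-116422864 and Hsph1 (ENSMUSG00000029657) at chr5:149614287-149636376, both on the minus strand. Hspa1b (ENSMUSG00000090877) is at chr17:34956436-34959238, Hspa1a (ENSMUSG00000091971) at chr17:34969190-34972156 and Hsp90ab1 (ENSMUSG00000023944) at chr17:45567775-45573271, all on the minus strand. Hspa8 (ENSMUSG00000015656) is at chr9:40800984-40810087 on the plus strand, Hsp90aa1 (ENSMUSG00000021270) at chr12:110690605-110702728 on the minus strand, Dnajb1 (ENSMUSG00000005483) at chr8:83608193-83612653 and Hsf1 (ENSMUSG00000022556) at chr15:76477422-76501913, both on the plus strand. Hspb1 shares 51.7% of its 50-base windows with a processed pseudogene, Hsp25-ps1, which the files do not list, and 43.3% with Gm9817, which had 4 reads in all.

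Genes beside Hspb1 had smaller 4T1 differences, which was likely in advance because Hspb1 was singled out by its own. Within 250 kb, 11 other genes had at least 1 CPM on average. In the fit of 8 libraries 0 were called in 4T1 or TS/A by edgeR, where 0.226% and 0.00835% of all genes were. Likewise 0 were called by DESeq2 and 0 were under an unadjusted p of 0.05, for which no share of all genes is given. Their 4T1 log2 fold changes ran from -0.20 for Dtx2, a ubiquitin ligase gene, to 0.60 for Ssc4d, which had 1.03 to 2.36 CPM. Next in size were Rhbdd2 at 0.37 and Ywhag, a 14-3-3 protein gene, at 0.21. In the fit of 4T1 alone Ywhag (adjusted p = 0.0171) and Por, the electron donor of cytochrome P450 enzymes (0.18, adjusted p = 0.0388), passed by edgeR, where 22.8% of all genes did.

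Likeness to Hspb1 was measured as Pearson's correlation of log2 CPM over the 8 libraries, which share their line and label groups, and ranked over 9697 genes with at least 5 CPM. It is a description, given without a p, and it includes the 4T1 values that singled out Hspb1 and span most of its range. Adgrg1 came first (r = 0.990), followed by Eaf1, an RNA polymerase II elongation factor partner, and F3, the coagulation tissue factor (both 0.97), Adgrg3, the adhesion receptor gene 3474 bases beyond Adgrg1 (0.939), Dusp1, a MAP kinase phosphatase (0.932), and Pacsin3, an endocytosis protein (0.927). Adgrg3 was at 9.06 and 8.55 CPM in 4T1 with the empty vector and at 19.1 and 17.9 CPM with the Gpr56 vector, and Dusp1 was at 18.5 and 18.2 against 25.5 and 26.0 CPM, so their differences were in the direction of Hspb1 and smaller.

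None of the other heat shock genes was among these 6, which carries little information because 6 of 9697 ranked genes would seldom hold any of so few. Hsf1 ranked highest of them at 128 (r = 0.715), then Hspb8 at 2144 (0.185), Dnajb1 at 2634 (0.138), Hspa1b at 4465 (0.01), Hsp90aa1 at 5169 (-0.02), Hsph1 at 5557 (-0.05) and Hspa8 at 7593 (-0.204), while Hsp90ab1 was near the far end at 9658 (-0.818). Within TS/A the 4 libraries stood in the same order for Adgrg1 and Hspb1, with Adgrg1 at 34.8, 22.6, 16.3 and 13.3 CPM and Hspb1 at 8.86, 8.80, 7.86 and 7.43 CPM. The Poisson intervals of these Hspb1 levels overlapped, however, and the order was noticed after the values were seen. In that order both first libraries stood above both second ones. This split was also seen for Dnajb1, Hsf1 and Hsph1, was reversed for Hspb8, Hspa8 and Hsp90ab1, and was absent for Hspa1b and Hsp90aa1. No share of all genes is given for the split, so it is not read as a trait of the set.

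**Figure D4:**
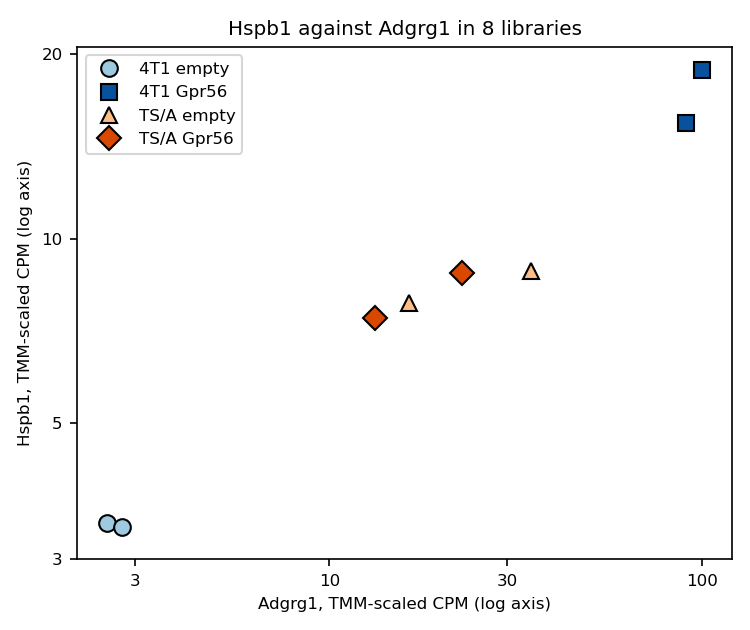
Hspb1 against Adgrg1 in TMM-scaled CPM (both axes logarithmic), 1 point per library by line and vector label. The 4T1 empty libraries lie at the lower left, the 4 TS/A libraries in the middle and the 4T1 Gpr56 libraries at the upper right, at 90.5 and 100.1 CPM of Adgrg1.

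The wider chaperone network was described with 10 gene lists, which hold 99 different genes outside the set, 98 of them in the files and 90 tested. In the fit of 8 libraries 0 of 90 passed in 4T1 and 0 of 90 in TS/A by edgeR, with median log2 fold changes of -0.09 and 0.00, and 0 of 90 differed between the lines in their vector contrast. By edgeR 0.226%, 0.00835% and 0.0668% of all genes passed in these contrasts. At an unadjusted p of 0.05 the counts of list genes were 10, 1 and 4, and DESeq2 called 2 in 4T1, Cryab higher and Hspa4l lower, and 0 in the others. No share of all genes is given for the unadjusted and DESeq2 counts of this paragraph, so no weight is placed on them. Of the HSF1 targets known from acute heat shock, other than the set itself, all 17 were tested and 0 passed in either line by edgeR (medians -0.07 and -0.04). Cryab, Hspa4l and Mt2, a metallothionein, were the 3 of them under an unadjusted p of 0.05 in 4T1, and 0 were in TS/A. Ubb, a polyubiquitin gene that heat shock induces, was at 1139 and 1155 CPM against 1109 and 1122 CPM in 4T1 (-0.04, SE 0.13). Hspd1, the mitochondrial HSP60, was at 1806 and 1793 CPM against 1843 and 1720 CPM (-0.01, SE 0.13).

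The 4T1 fit alone called 5 of the 90 higher and 24 lower with the Gpr56 vector, where 11.5% and 11.3% of all genes were called. The small heat shock proteins were the list whose calls were all higher: Hspb2 (1.03, SE 0.26, adjusted p = 0.0103) and Cryab, the alpha B crystallin (0.74, SE 0.12, adjusted p = 3.6e-04), passed by edgeR out of 4 tested. The other tested genes of that list, Hspb6 (-0.157, SE 0.205) and Hspb11 (-0.266, SE 0.158), were lower and did not pass. Cryab stood at 19.6 and 21.8 CPM with the empty vector and at 31.2 and 39.0 CPM with the Gpr56 vector, and at 37.7 and 32.6 against 32.4 and 30.4 CPM in TS/A, where both libraries labelled Gpr56 were lower. Hspb2 stood at 2.53 and 2.26 against 4.40 and 5.53 CPM. Cryab and Hspb2 lie head to head on chromosome 9 and share 252 exon bases on opposite strands, so without strand their reads cannot be fully told apart. In the fit of 8 libraries neither passed (Cryab adjusted p = 0.111, Hspb2 adjusted p = 0.264, by edgeR).

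Of 13 tested TRiC and prefoldin genes, the chaperonin that folds actin and tubulin and its delivery partner, 8 were lower and 0 higher in the 4T1 fit alone, led by Tcp1 (-0.46, SE 0.05, adjusted p = 2.06e-05) and Pfdn6 (-0.37, SE 0.09, adjusted p = 0.00848), by edgeR. Tcp1 was at 1013 and 1026 CPM with the empty vector and at 764 and 720.3 CPM with the Gpr56 vector. The HSF1 target list had 1 higher, Cryab, and 5 lower, among them Hspa4l, an HSP110 protein (-0.64, SE 0.07, adjusted p = 1.08e-05), and Mt1, a metallothionein (-0.42, SE 0.08, adjusted p = 0.0014), by edgeR. The remaining lists had 0 higher and 2 lower of 7 HSP70 and HSP110 genes, 0 and 2 of 16 J-domain genes, 0 and 3 of 11 HSP90 co-chaperones, 0 and 1 of 10 HSP70 exchange factors and co-factors, 2 and 3 of 9 mitochondrial genes, 1 and 3 of 13 endoplasmic reticulum genes and 0 and 0 of 2 heat shock factor genes. Named among these were Fkbp5 (-0.43) and Ppid (-0.40), immunophilins of the HSP90 complex, Trap1, the mitochondrial HSP90 (0.34), Lonp1, a mitochondrial protease (-0.27), and Sdf2l1 (0.53) and Hspa5 (-0.23) of the endoplasmic reticulum. The plot of lists shows the values of the fit of 8 libraries, in which none of the listed genes passed.

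**Figure D5:**
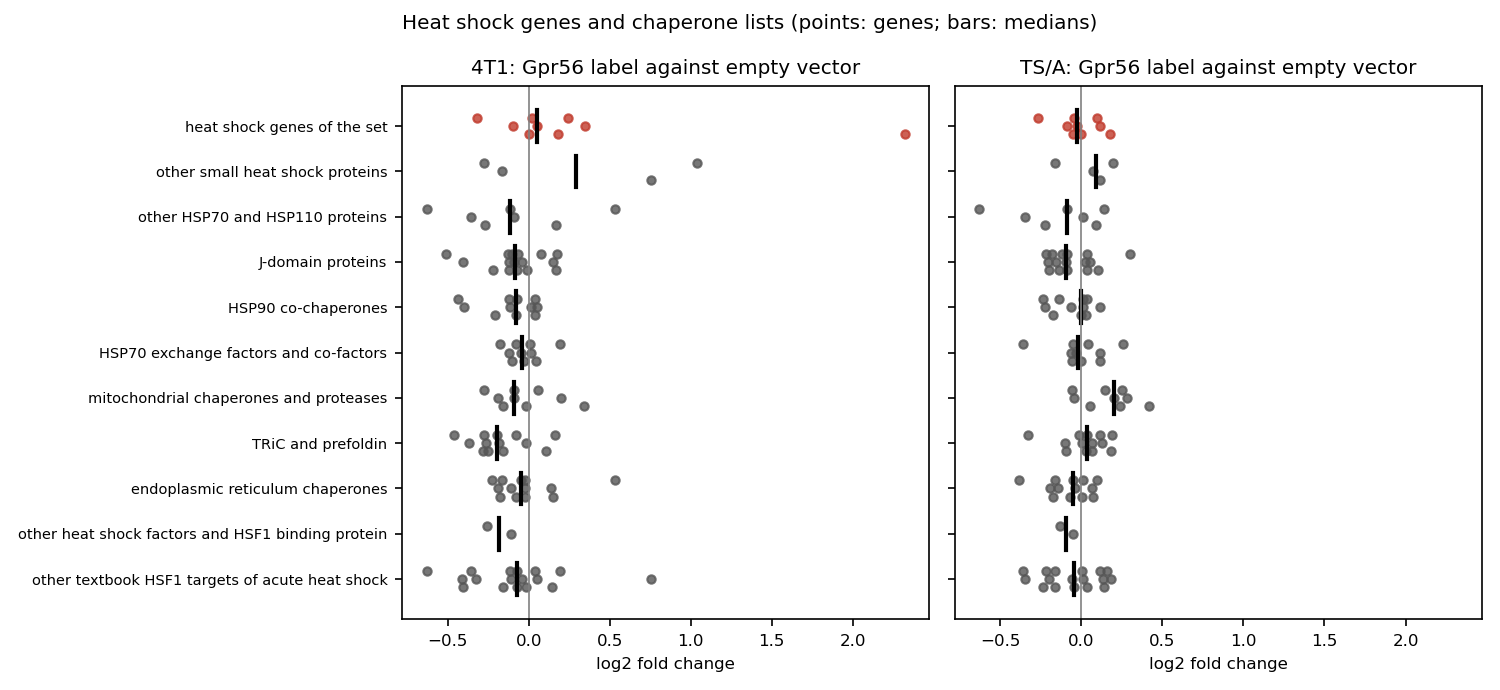
Log2 fold change (horizontal axis) of the Gpr56 against the empty vector label in 4T1 (left) and TS/A (right) from the fit of 8 libraries, 1 point per tested gene and a bar at each list's median. The red points are the 9 tested heat shock genes, Hspb1 included in their median. Hspb1 lies at 2.32 in 4T1, and all other points in either line lie between -0.63 and 1.04.

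Between the lines, 23 of the 90 genes were higher and 11 lower in TS/A with the empty vector, where 23.9% and 23.5% of all genes were. The J-domain genes held the extremes: Dnaja4 was lower by 2.55 (SE 0.16, adjusted p = 9.53e-06) and Dnajb4 higher by 1.91 (SE 0.20, adjusted p = 1.49e-04), by edgeR. Both other small heat shock proteins that had been called in 4T1 alone were higher in TS/A, Cryab by 0.76 and Hspb2 by 1.06 (adjusted p = 0.00448 and 0.026 by edgeR), a comparison that shares the 4T1 empty libraries. In the endoplasmic reticulum list Hspa5, the resident HSP70, was lower (-0.89, adjusted p = 0.00162) while Dnajb9, its J-domain partner, was higher (1.67, adjusted p = 5.26e-05), by edgeR. Sil1, the exchange factor of Hspa5, was also higher (1.45, adjusted p = 9.39e-05 by edgeR). Of the HSF1 target list, 4 of 17 were higher and 1 was lower.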

How the data were processed

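RNA of 8 libraries came from RNeasy Mini Kit extractions and was prepared for sequencing by the TruSeq kit v2, per the labels' protocols. The kit does not mark strand. The deposited files list 65042 transcripts with whole-number read counts (total gene reads) and RPKM, per the file headers. No aligner, counter, build or annotation used by the authors is named (not given in the sources used here). Each deposited RPKM could be checked as reads over length times a library factor and held to a relative 0.001 for 98.36% to 98.45% of transcripts with at least 20 reads. They were used for levels between genes and not for tests.

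The deposited counts were summed by gene name (trailing number removed) to 22026 genes, 15815 of them with a read. Transcript identifiers were matched to GENCODE M21 (GRCm38), which held 65023 of 65042. Tests used edgeR 4.0.16 in R 4.3.3 (filterByExpr, TMM, glmQLFit and glmQLFTest) in 1 fit of 8 libraries and 4 groups, with 11970 genes, Benjamini-Hochberg adjustment and a threshold of 0.05. SE is the log2 fold change over the square root of F. The common biological coefficient of variation was 14.68%. Poisson intervals are at 95%. Samples were grouped by the vector in the characteristics and by line. Promoters are from RefSeq. The procedure was also run on simulated data that gave all groups the same spread, unlike these groups, and its outcome is not used here.

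The set, the gene lists and the tests were chosen with earlier results of these data known. Named genes are all 10 of the set, Adgrg1, up to 2 list genes each way past the threshold or else the 2 with the most reads, the 6 genes most like Hspb1, and those within 250 kb of it. For lists with and without a call, some of the genes that the rule takes are not named. The search for 2-unit motifs, the 4T1 fits without 1 library and the mention of Mt2 were added after the values were seen. Alternatives were DESeq2 1.42.0 (size factors, and its Wald test), library totals, no filter or 10 CPM in 2 libraries, 1 line alone, a replicate block, summed Hspa1a and Hspa1b, GENCODE identifiers, and leaving out each library.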

Additional observations from a re-analysis of the deposited data

Results flagged for a closer look

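Hspb1 had unlike contrasts of vector labels in 4T1 and TS/A. The TS/A contrast minus the 4T1 contrast was -2.37 on the log2 scale (SE 0.27), from 2.32 in 4T1 and -0.04 in TS/A. It is listed because of this gap between the contrasts. The 4T1 contrast within it is the one that singled out Hspb1, so the difference is a description and no test outcome is read from it.

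Adgrg1, the transduced gene, differed in the same way, by -5.67 (SE 0.55, adjusted p = 0.0204 by edgeR), from 5.16 in 4T1 and -0.51 in TS/A. Its level was higher in both 4T1 Gpr56 libraries, while the TS/A groups overlapped.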

How the results depend on the processing

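Of the log2 fold changes of single heat shock genes under other settings, 566 kept direction and side of the threshold, 22 came to pass it, 13 no longer did and 29 changed sign, and the cause was not tested for any of them. Members called in 4T1 were 5 with 4T1 fitted alone, against 1, and ran from 0 to 5 when libraries were left out (0 to 2 in the fit of all others). With TS/A labels they ran from 0 to 2, for the difference between lines from 0 to 3, and between lines with the empty vector from 5 to 7. With library totals the difference between lines had 0 calls against 1. All genes called in 4T1 were 27, and 2588 with 4T1 alone, 271 by the DESeq2 Wald test, 266 without a filter and 0 to 2748 without 1 library. In TS/A they were 1, and 10 by DESeq2, 8 without a filter, 0 with library totals or TS/A alone and 0 to 2933 without 1 library. For the difference they were 8, and 66 by DESeq2, 60 without a filter, 4 with library totals and 0 to 2391 without 1 library, and between lines 5674, and 3335 to 7853 without 1 library.

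Without a filter Hsph1 was at -0.002 in 4T1 and the Hspb8 difference at 0.000. Without 1 library, 4T1 values ran from -0.015 to 0.023 for Hsph1 and from -0.053 to 0.094 for Hsp90aa1, and with 4T1 alone Hsph1 was at -0.012 without empty 1 and Hsp90aa1 at -0.052 without Gpr56 1. TS/A values ran from -0.168 to 0.072 for Hspb1, -0.037 to 0.438 for Hspb8, -0.62 to 0.26 for Hspa1b, -0.037 to 0.252 for Hspa8, -0.196 to 0.083 for Dnajb1, -0.097 to 0.052 for Hsph1 and -0.13 to 0.14 for Hsf1. Differences between lines ran from -0.22 to 0.26 for Hspb8, -0.102 to 0.048 for Hsph1 and -0.246 to 0.033 for Dnajb1, and Hsf1 between lines with the empty vector ran from -0.11 to 0.16. Hspb1 in 4T1 kept its sign under all settings run. A group with 1 library left borrows its spread from the other groups. The mean of Hsf1 per length was 21.07 with the longest transcript, against 26.0 RPKM.

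The replicate block used numbers that groups share only as numbers: deviations of same-numbered libraries correlated at -0.021 in 4T1 and 0.313 in TS/A over 2 pairs each. With the block, genes called in 4T1 rose to 130 and for the difference to 37, the members called stayed at 1, 0, 1 and 6 in the order 4T1, TS/A, difference and line, Hsf1 in TS/A was at 0.001 and the Hspb8 difference at 0.016. Depth limits Hspa1a, with 0 to 6 reads, and Hspa1b in TS/A.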
